A study of Mus musculus with 6 samples.

Results

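A group of fibroblasts with RNA of at least 2 of the genes Wt1, Aldh1a2, Ahsg, Fetub and Slc6a2 was examined in male mice, wild-type (WT) or carrying the human aromatase gene, from which lower abdominal muscle (LAM) was taken. The cells were picked out of single-cell RNA-seq libraries by a rule on UMIs, the counts of distinct captured RNA molecules, and were chosen for their larger share in aromatase mice. A cell had to have at least 1000 UMIs, at most 10% of them from mitochondrial genes, a UMI of Pdgfra, a UMI of at least 2 of the 5 genes Wt1, Aldh1a2, Ahsg, Fetub and Slc6a2, and none of Upk3b, Msln or Pecam1. The rule took 2116 of 53443 cells that passed the same UMI and mitochondrial limits, out of 63647 deposited barcodes. They are called selected fibroblasts here, after the rule. They made up 2116 of the 15362 Pdgfra cells, meaning cells with a Pdgfra UMI and none of Upk3b, Msln or Pecam1, and the remaining 13246 are the other Pdgfra cells.

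The study compared 3 WT with 3 Arom mice, all male, of the FVB/N strain and 9 to 10 weeks old. Arom mice carry the human gene CYP19A1, which encodes aromatase, the enzyme that makes estrogens from androgens, under its own human tissue-specific promoters, so that it is not limited to fibroblasts. No mouse received a treatment. Each library came from the LAM of 1 mouse, which was minced, digested with collagenase and Dispase and filtered, so that whole muscle fibers were removed, and then run on the 10x Genomics 3′ platform.

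Fibroblasts of skeletal muscle are the Pdgfra-positive connective tissue cells, also called fibro-adipogenic progenitors, that lay down matrix between fibers. Wt1 encodes a zinc finger transcription factor known from the linings of body cavities, the kidney and the gonads. Aldh1a2 encodes the enzyme that turns retinal into retinoic acid, and it is expressed with Wt1 in mesothelial cells, the flat cells that line the peritoneum. Ahsg and Fetub encode fetuin-A and fetuin-B, Kng2 a kininogen, all secreted proteins best known from liver, and Slc6a2 encodes the transporter that takes noradrenaline back into cells. Kng2 was listed among the markers of these cells but played no part in the rule.

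Ahsg, Fetub and Kng2 are neighbors on mouse chromosome 16. In RefSeq positions on GRCm38.p6, Ahsg lies at chr16:22892015-22899451, Fetub at chr16:22918382-22939768 and Kng2 at chr16:22985852-23029101, with Hrg between Fetub and Kng2, and the stretch from the start of Ahsg to the end of Kng2 spans 137.1 kb. Wt1 lies apart from them at chr2:105126529-105173614, Slc6a2 at chr8:92960470-93001667 and Aldh1a2 at chr9:71215789-71296243. Promoters of these 3 neighboring genes are shown because 2 of them are in the rule and Kng2 is the marker left outside it. RefSeq gives Fetub another start site, whose promoter at chr16:22919972-22920271 held neither of the motifs searched and is not printed. Each is 300 bases, 250 before the start site and 50 from it on, written 5′ to 3′ on the strand of the gene, and capitals mark matches to AGGTCA, the core motif of many nuclear receptors, or to TATAAA, the letters of a TATA box, both searched on both strands.
Ahsg, chr16:22891765-22892064, plus strand: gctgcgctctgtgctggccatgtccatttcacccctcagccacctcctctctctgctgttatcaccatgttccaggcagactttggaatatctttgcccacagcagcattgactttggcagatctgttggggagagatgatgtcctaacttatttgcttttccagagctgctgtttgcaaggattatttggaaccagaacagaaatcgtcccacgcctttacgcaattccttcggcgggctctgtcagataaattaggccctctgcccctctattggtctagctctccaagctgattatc
Fetub, start site 1, chr16:22918132-22918431, plus strand: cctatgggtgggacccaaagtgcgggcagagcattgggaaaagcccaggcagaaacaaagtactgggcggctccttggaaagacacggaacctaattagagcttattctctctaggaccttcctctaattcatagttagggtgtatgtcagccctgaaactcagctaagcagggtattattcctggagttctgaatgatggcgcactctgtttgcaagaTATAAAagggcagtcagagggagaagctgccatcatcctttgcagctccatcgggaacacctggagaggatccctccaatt
Kng2, chr16:23029052-23029351, minus strand: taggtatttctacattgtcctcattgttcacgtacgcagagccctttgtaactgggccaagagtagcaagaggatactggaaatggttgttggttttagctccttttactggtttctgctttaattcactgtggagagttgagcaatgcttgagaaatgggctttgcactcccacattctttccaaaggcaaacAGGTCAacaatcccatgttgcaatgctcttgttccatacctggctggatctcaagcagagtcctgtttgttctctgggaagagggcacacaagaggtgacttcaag
The Ahsg promoter held neither motif. TATAAA began 31 bases before start site 1 of Fetub, and AGGTCA began 56 bases before the Kng2 start site. AGGTCA occurred in 5340 of 32851 RefSeq promoters of this length (16.3%) and TATAAA in 4473 (13.6%).

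Libraries held between 64958237 and 111826460 UMIs, and each of the 3 Arom libraries held more than any of the 3 WT libraries. These totals rise with the number of barcodes and are not depth per cell, which is given below. Between 6765 and 12192 cells per mouse were kept. CYP19A1, which checks the genotype labels, had no UMI among selected fibroblasts of any WT mouse, whereas Arom1, Arom2 and Arom3 had 132, 74 and 41 UMIs. Over the pooled UMIs, with 3 UMIs as the limit that a count of 0 allows for the WT group, that is at least 11.9-fold higher in Arom mice. Of the selected fibroblasts, 32 had a barcode that also occurred in another library, and 0 shared it with another selected cell. Intervals from counts given below cover counting error only.

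The selected fibroblasts made up 1.57%, 1.38% and 1.29% of the cells kept from WT1, WT2 and WT3, and 7.29%, 5.35% and 4.59% of those from Arom1, Arom2 and Arom3. The Wilson 95% intervals ran from 1.04% to 1.86% over the WT mice and from 4.15% to 7.80% over the Arom mice, and the groups did not overlap. The mean was 1.41% ± 0.146 (SD, n = 3) in WT and 5.74% ± 1.39 (SD, n = 3) in Arom mice, a ratio of 4.06. The cells were chosen by these UMIs and for this difference, so the shares are a description and were not tested. As a share of the Pdgfra cells, the ratio was smaller: 6.04%, 6.08% and 8.69% in WT and 22.1%, 13.8% and 16.3% in Arom mice, with means of 6.94% ± 1.52 and 17.4% ± 4.26 (SD, n = 3 each) and a ratio of 2.51.

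**Figure D1:**
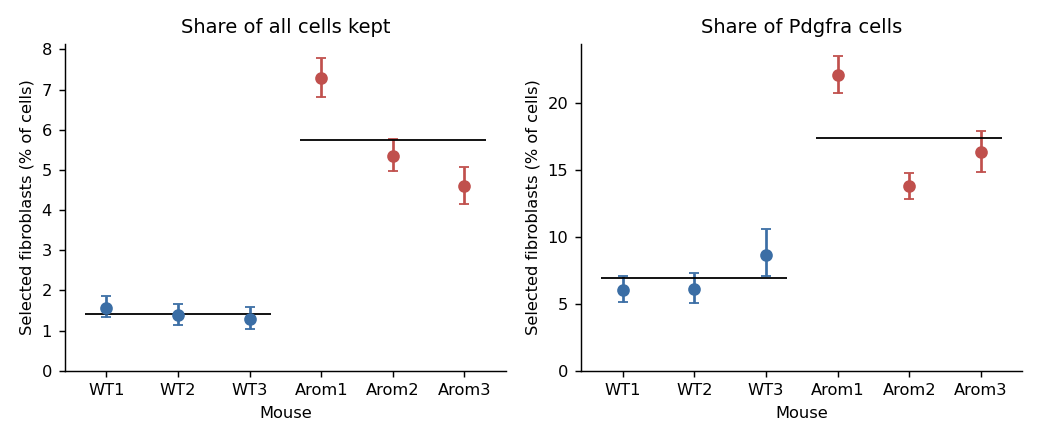
Selected fibroblasts as a percent of all cells kept (left) and of Pdgfra cells (right) in each mouse, with 95% Wilson intervals as bars and the mean of each genotype as a line (blue WT, red Arom). The 3 Arom mice lie between 4.59% and 7.29% of all cells and the 3 WT mice between 1.29% and 1.57%.

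The rule asks for UMIs of rarely captured genes, so the share moves with depth. The median selected fibroblast had 10618, 12378 and 12208 UMIs in WT1, WT2 and WT3 and 15303, 12526.5 and 15038 in Arom1, Arom2 and Arom3, against 10517 over all other Pdgfra cells. By mouse, other Pdgfra cells had medians of 9109, 9806 and 10432 in WT and 12440, 9849 and 12959 in Arom mice. Depth per cell thus overlapped between genotypes in those cells, with Arom2 below WT3. In the selected fibroblasts it did not, and every Arom median lay above every WT median. The part of depth in the difference in share was not tested. With every cell thinned to 1000 UMIs, 35 cells still met the rule, of which WT2 had 1, WT1 and WT3 had 0, and Arom1, Arom2 and Arom3 had 14, 11 and 9, or 0.131%, 0.0902% and 0.114% of Arom cells. A count of 0 among the kept cells of WT1 allows a share of up to 0.0352%, and of WT3 up to 0.0443%. With the study's fixed limits on cells (at most 2500 genes and 5% mitochondrial UMIs), but without its further removal of outliers by median absolute deviation, 312 cells met the rule and the genotypes overlapped, at 1.19%, 0.914% and 0.577% in WT and 2.26%, 2.68% and 0.844% in Arom mice.

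Most selected fibroblasts met the rule at its limit. Of the 15362 Pdgfra cells, 9054 had none of the 5 genes, 4192 had 1, 1555 had 2, 430 had 3, 114 had 4 and 17 had all 5. Just outside the limit, cells with 1 of the genes had a median of 12059.5 UMIs and 85.7 CPM of Kng2 (counts per 1000000 UMIs summed over the cells). Just inside it, cells with 2 had a median of 13646 UMIs and 114 CPM of Kng2. These levels are pooled over mice, whose shares differ between the classes (of the 114 cells with 4 genes, Arom1 had 62, Arom2 36, Arom3 13, WT3 2, WT1 1 and WT2 0), so they were not ranked over the classes.

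Wt1 had a UMI in 75.2% of the selected fibroblasts, Aldh1a2 in 47.8%, Slc6a2 in 45.3%, Fetub in 44.1% and Ahsg in 21.1%. Other Pdgfra cells, which have at most 1 of the 5 by the rule, had them in 16.3%, 5.29%, 4.77%, 4.42% and 0.846%. Among Pdgfra cells with none of the other selecting genes, Wt1 was found in 22.0% (mean of WT mice) and 19.3% (mean of Arom mice). Wt1 was thus not particular to the selected cells. Endothelial cells, which should lack these genes, had a UMI of Wt1 in 1.23%, of Aldh1a2 in 0.726%, of Slc6a2 in 0.254%, of Fetub in 0.190% and of Ahsg in 0.0775% of 14190 cells, at a median of 6380.5 UMIs against 13829.5 in the selected fibroblasts. Wt1 and Aldh1a2 were together in 707 cells (33.4%), Wt1 and Slc6a2 in 31.8%, Wt1 and Fetub in 25.8%, and Ahsg and Fetub in 12.5%. The pair in the label, Wt1 with Aldh1a2, was detected in a minority of them.

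The 5 genes also differed in level between mice. Levels are again CPM of the UMIs summed over those cells in a mouse. Ahsg stood at 15.7, 8.69 and 12.8 CPM in the selected fibroblasts of WT1, WT2 and WT3 and at 78.6, 36.7 and 31.4 in those of Arom1, Arom2 and Arom3. Slc6a2 stood at 47.0, 23.2 and 17.9 CPM in WT and 78.7, 64.1 and 39.3 in Arom mice. The genotypes did not overlap for Ahsg and overlapped for Slc6a2. Aldh1a2 went from 43.4, 61.5 and 115 CPM in WT to 150.4, 210.0 and 93.6 in Arom mice, with overlap. Fetub was at 52.4, 65.2 and 56.2 CPM in WT and 66.5, 49.4 and 68.0 in Arom mice, and Wt1 at 133, 121 and 93.6 CPM in WT and 81.8, 83.0 and 95.3 in Arom mice. Wt1 and Fetub thus did not show the higher Arom level of Ahsg, and for all 5 genes the levels follow from the rule and carry no test.

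**Figure D2:**
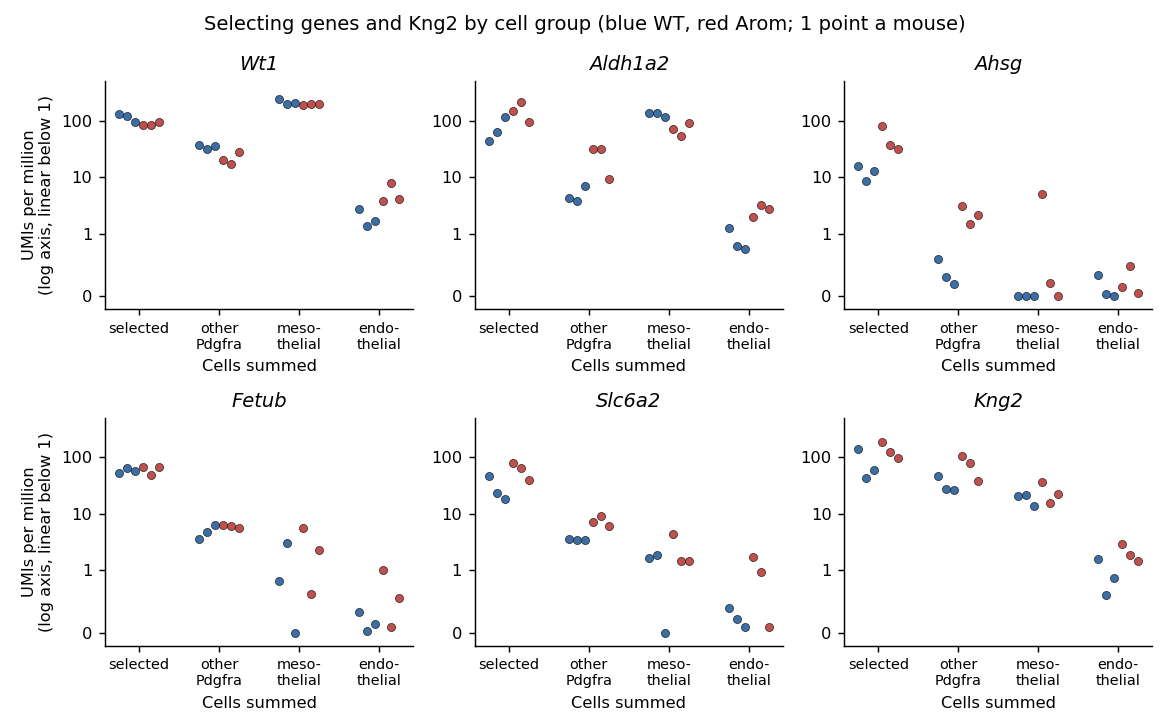
Levels of the 5 selecting genes and Kng2 in CPM (log axis, linear below 1) in the selected fibroblasts, other Pdgfra cells, mesothelial cells and endothelial cells, with 1 point per mouse (blue WT, red Arom). Wt1 and Aldh1a2 were also high in mesothelial cells, whereas Ahsg, Fetub and Slc6a2 stayed below 10 CPM in every other group plotted.

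Kng2 is the marker that the rule left free. It was listed with the selecting genes, with earlier results of these data known. Kng2 was therefore likely to be higher in the selected cells, and its test is no independent evidence. Its level in the selected fibroblasts was 139.7, 43.4 and 60.4 CPM in WT1, WT2 and WT3 and 188, 122 and 98.6 in Arom1, Arom2 and Arom3, against 46.7, 27.5 and 25.9 in the other Pdgfra cells of the WT mice and 106, 77.5 and 37.3 in those of the Arom mice. It was higher in the selected cells of all 6 mice, with a log2 fold change of 1.03 ± 0.12 (SE) and an adjusted p of 0.000631 (edgeR quasi-likelihood test). Within the 2 column blocks of the deposited table described below, the difference was 1.31 in block 8 and 0.33 in block 10, where it did not pass (edgeR adjusted p = 0.152). A Kng2 UMI was found in 57.8% of selected fibroblasts, 26.3% of other Pdgfra cells and 0.747% of endothelial cells. In mesothelial cells Kng2 was lower, at 20.8, 21.6 and 13.8 CPM in WT and 35.7, 15.7 and 22.0 in Arom mice (log2 fold change of selected over mesothelial cells 2.44 ± 0.22, edgeR adjusted p = 2.41e-05). Between genotypes, Kng2 in the selected fibroblasts differed by 0.69 ± 0.43 on the log2 scale (edgeR adjusted p = 0.372), and WT1 lay above 2 of the 3 Arom mice.

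Markers of several cell types were summed in the selected cells. The rule asks for Pdgfra and keeps out Upk3b, Msln and Pecam1. High fibroblast sums and low mesothelial and endothelial sums thus follow in part from the selection. The 9 fibroblast markers, of which Pdgfra is in the rule, summed to between 39657 and 42649.8 CPM in WT and between 39616 and 46193 in Arom mice. In other Pdgfra cells they summed to between 43916 and 46601 CPM in WT and between 45022 and 53109 in Arom mice. Against those cells, 4 of 8 tested fibroblast markers were lower by edgeR (Col1a1, Col1a2, Dpt and Col3a1) and 0 higher. Of all genes tested there, 4.25% were lower and 2.36% higher. The 14 mesothelial markers, of which Upk3b and Msln are at 0 by the rule, summed to between 17.5 and 45.1 CPM in WT and 45.0 and 50.2 in Arom mice, where mesothelial cells held between 8078 and 12996. Endothelial markers, of which Pecam1 is at 0 by the rule, summed to at most 94.6 CPM. T cell markers summed to 0, 2.90 and 1.70 CPM in WT1, WT2 and WT3 and to 10.8, 7.51 and 4.95 in Arom1, Arom2 and Arom3, without overlap. Smooth muscle and pericyte markers summed to between 47.8 and 161 CPM in WT and between 46.2 and 331 in Arom mice. Of 6 hepatocyte markers the table held only Apoa1, at 0.453 to 2.90 CPM, although fetuins and kininogen are liver products. Muscle fiber markers were uneven, at 1608, 3234 and 23.8 CPM in WT1, WT2 and WT3 and 79.6 to 158 CPM in the Arom mice, and glial markers were higher in WT (82.5 to 192 CPM) than in Arom mice (6.80 to 31.4). Macrophage markers reached 461 CPM in WT3 and lay between 23.4 and 149 in the other mice. The part of these other cells' RNA in the genotype results below was not tested.

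The columns of the deposited table run in 30 blocks, whose meaning is not stated in the sources used here, and most of the selected fibroblasts stood in 2 of them. Block 8 held 1237 (58.5%) and block 10 held 701 (33.1%). Block 8 took 65.7%, 74.5% and 75.9% of the selected cells in WT1, WT2 and WT3 and 54.7%, 48.3% and 73.5% in Arom1, Arom2 and Arom3, and block 10 took 20.9%, 9.80% and 8.05% in WT and 37.5%, 45.9% and 18.0% in Arom mice. The share in block 10 was thus highest in Arom1 and Arom2, and Arom3 lay below WT1.

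**Figure D3:**
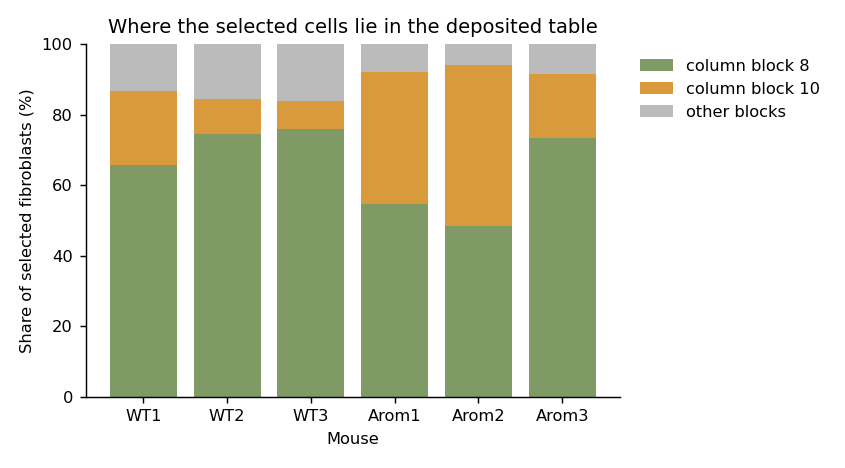
Share of each mouse's selected fibroblasts, in percent, that stood in column block 8, in column block 10 or in any other block of the deposited table. Block 10 made up 45.9% of the selected cells of Arom2 and 8.05% of those of WT3.

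The selected cells of the 2 blocks were unlike. Those of block 10 had 194 CPM of Esr1, 165 of the progesterone receptor gene Pgr, 2701 of Nppc and 25035 of Ren1, and those of block 8 had 31.0, 16.8, 149 and 2033. Those of block 8 had 75.8 CPM of Ahsg, 96.0 of Fetub, 211 of Kng2 and 396 of Mmp3, and those of block 10 had 11.3, 14.6, 67.2 and 93.3. Wt1 (101 and 79.5 CPM) and Aldh1a2 (122 and 187 CPM) were closer in blocks 8 and 10. The fetuin and kininogen RNA thus came mainly from block 8 and the estrogen receptor RNA mainly from block 10, so the rule gathered cells of unlike profiles and not a single one. These are pooled levels over all mice, with no test. All fits within block 10 leave out WT3, which had 7 selected cells there, and rest on 5 mice. A gene that did not pass there may have been missed for want of cells.

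The next comparison asked which other genes set the selected fibroblasts apart from the other Pdgfra cells of the same mice. Of 12906 genes tested outside the rule, 304 were higher (2.36%) and 548 lower (4.25%) in the selected cells, 6.60% in all (edgeR quasi-likelihood test with mouse as a block, Benjamini-Hochberg adjusted p under 0.05). The genes on the higher side differed by little, at most 1.23 on the log2 scale among the 12 named by rule, whereas those on the lower side reached -2.72. Without the mouse block, only 34 genes were called.

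Mest, an imprinted gene of the hydrolase family that is active in embryonic mesoderm, had the largest fold change among the genes named on the higher side. It stood at 32.5, 60.1 and 53.6 CPM in the selected fibroblasts of WT1, WT2 and WT3 and 141, 55.1 and 95.8 in those of Arom1, Arom2 and Arom3, against 16.7 to 41.6 in the other Pdgfra cells (log2 fold change 1.23 ± 0.12, edgeR adjusted p = 0.000152). It differed by 1.72 within block 8 and by 0.46 within block 10, where it did not pass (adjusted p = 0.405). Rdh10 encodes the enzyme that oxidizes retinol to retinal, the step before Aldh1a2. It stood at 45.8, 57.2 and 70.6 CPM in WT and 95.1, 66.1 and 107 in Arom mice, against 29.7, 29.1 and 43.3 and then 45.2, 39.5 and 52.5 in the other Pdgfra cells (log2 fold change 0.87 ± 0.08, edgeR adjusted p = 8.93e-05). Rdh10 was higher in the selected cells of all 6 mice.

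The other named genes on the higher side included secreted regulators and potassium channel genes. Frzb, a secreted Wnt antagonist, was higher by 0.89 ± 0.16 and Bmper, which binds bone morphogenetic proteins, by 0.69 ± 0.06 on the log2 scale. Kcnk2, a mechanosensitive potassium channel, was at 71.6 ± 37.0 CPM against 38.3 ± 14.3 (mean and SD over 6 mice), and Kcne4, a channel subunit, at 69.6 ± 70.3 against 40.9 ± 39.9. For both genes the spread between mice was wide, and the selected cells were higher in each of the 6 mice. Plau, which encodes urokinase, and Serpine2, which encodes an inhibitor of it and of thrombin, were higher by 0.73 ± 0.07 and 0.70 ± 0.07. Adamts4, an aggrecan-cleaving protease, was higher by 0.67 ± 0.06 and Abca8b, a lipid transporter, by 0.66 ± 0.07. Each of these genes was higher in all 6 mice, as the naming rule required. All 12 genes named by rule on this side passed within block 8 and 5 within block 10, Frzb, Rdh10, Kcne4, Serpine2 and Bmper. They were named on these same cells, most of which stood in block 8, so these passes are no independent evidence.

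On the lower side, Dmkn, which encodes the secreted protein dermokine, stood at 28.3, 7.24 and 2.55 CPM in WT1, WT2 and WT3 and 39.7, 55.1 and 22.3 in Arom1, Arom2 and Arom3, against 185, 49.0, 94.4, 343, 347 and 75.1 in the other Pdgfra cells of the same mice (log2 fold change -2.72 ± 0.20, edgeR adjusted p = 4e-05). Within block 8 Dmkn differed by -2.65 and within block 10 by -0.31 (adjusted p = 0.576). Sbsn, which encodes suprabasin, was lower (-1.71 ± 0.26 on the log2 scale), Cpxm2, a carboxypeptidase-like protein, differed by -1.68 ± 0.13, and Wisp2, an estrogen-responsive matricellular gene, by -1.73 ± 0.26. Srgn, the proteoglycan serglycin, differed by -1.46 ± 0.14 and 1500015O10Rik by -1.55 ± 0.21. Mup5 differed by -1.74 ± 0.41, but it belongs to a family of near-identical genes and its count is uncertain. Cd74, the invariant chain of class II antigen presentation, was also lower (log2 fold change -1.74 ± 0.43, edgeR adjusted p = 0.0354). That direction for Cd74 did not hold within the column blocks, where the difference was 0.57 in block 8 and 0.39 in block 10, neither past the threshold. Of the 8 genes named by rule on the lower side, 7 passed within block 8, and Wisp2 alone passed within block 10 (-0.92), where Sbsn stood at -0.12.

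**Figure D4:**
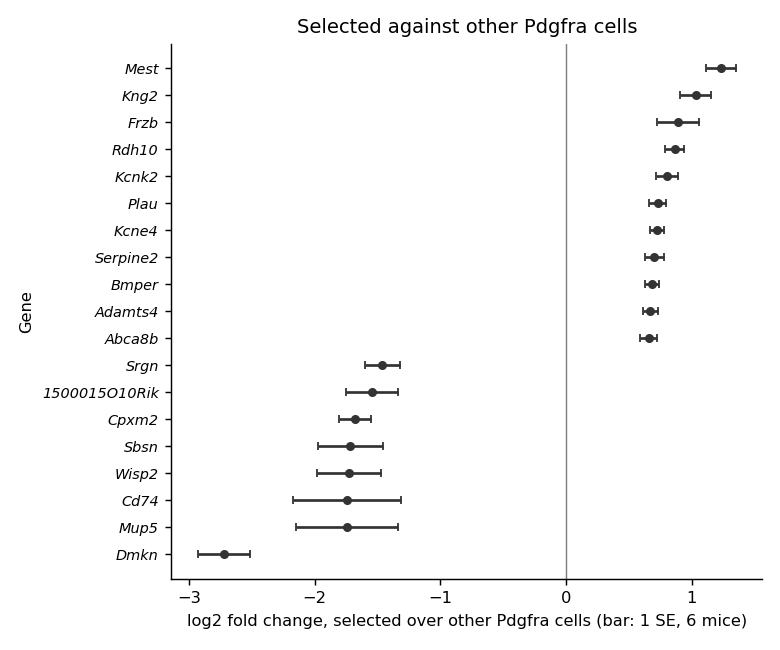
Log2 fold change of the selected fibroblasts over other Pdgfra cells for genes named by rule, with bars of 1 SE over 6 mice. Mest lies farthest to the right at 1.23 and Dmkn farthest to the left at -2.72.

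Of 16 tested genes of retinoid handling outside the rule, Rdh10 alone was higher and 4 were lower, beside 2.36% of all genes higher and 4.25% lower, with a median log2 fold change of -0.31 against 0.0016 over all genes tested. Cyp26b1, which degrades retinoic acid, stood at 2.41, 1.45 and 0.851 CPM in the selected cells of WT1, WT2 and WT3 and 3.32, 8.82 and 1.49 in those of Arom1, Arom2 and Arom3, against 5.07, 17.2, 4.30, 15.4, 36.3 and 2.57 in the other Pdgfra cells (log2 fold change -2.07 ± 0.18, edgeR adjusted p = 0.000106). Dhrs3, which turns retinal back into retinol, differed by -0.52 ± 0.10, the receptor gene Rarg by -0.49 ± 0.08 and Rarres2, which encodes the adipokine chemerin, by -0.37 ± 0.08. Cyp26b1 and Rdh10 passed the threshold within block 8 and within block 10 as well, with log2 fold changes of -2.50 and -1.58 for Cyp26b1 and 1.16 and 0.76 for Rdh10. Dhrs3, Rarg and Rarres2 did not pass within block 10, at 0.03, -0.20 and -0.19.

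Transcription factors known from coelomic linings and the epicardium had a median log2 fold change of 0.014, and a shift of the list was not tested. Within block 8 the median was -0.29, with 1 of 10 higher and 4 lower. Of 10 tested outside the rule, Hand2 was higher (0.78 ± 0.15) and Isl1 and Tbx18 were lower (-2.60 ± 0.21 and -1.82 ± 0.21), each at a mean of under 10 CPM in the selected cells (edgeR adjusted p = 0.012, 6.45e-05 and 0.000481), beside 2.36% of all genes higher and 4.25% lower. No gene of the list was higher without Arom1 or Arom2, with thinned cells, with the study's fixed limits or with at least 3 of the 5 genes. Hand2 did not pass within block 8 (0.11), nor Isl1 (-1.22) and Tbx18 (-0.61) within block 10. Of 8 tested genes of the fetuin and kininogen list outside the rule, Kng2 was higher and Cst3, which encodes cystatin C, was lower. The lower call was lost without WT1 or WT2, with at least 3 of the 5 genes, within block 8, within block 10 and with no mouse block. None of 6 tested genes of monoamine transport and breakdown other than Slc6a2 passed the threshold by edgeR or DESeq2, at a background of 6.60%.

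Of 14 tested basement membrane genes, 7 were higher and 3 lower (Col4a6, Egfl6 and Lama4), beside 2.36% of all genes higher and 4.25% lower. Col4a1 stood at 473, 601 and 816 CPM in WT and 782, 582 and 833 in Arom mice, against 314, 492 and 530.1 and then 429, 332 and 565 in the other Pdgfra cells (log2 fold change 0.61 ± 0.06, edgeR adjusted p = 0.000236). Col4a2 differed by 0.58 ± 0.09, Col15a1 by 0.52 ± 0.05 and Hspg2, which encodes perlecan, by 0.32 ± 0.05. Within block 10, 2 of 13 were higher, Col4a1 at 0.41 and Col4a2 at 0.36 on the log2 scale, and 7 of the 13 lay below 0. The 3 lower calls were 0 without Arom1, WT1 or WT3 and with thinned cells, 1 without Arom2 and 2 without WT2.

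Of 10 tested genes of the adventitial progenitor state, the Dpp4 and Pi16 cells around vessels, 6 were lower and 0 higher, beside 4.25% of all genes called lower, and all 10 had a log2 fold change below 0. Dpp4 stood at 30.7, 33.3 and 8.51 CPM in WT and 19.7, 24.3 and 37.8 in Arom mice, against 92.3, 59.7 and 52.0 and then 62.9, 68.7 and 70.6 in the other Pdgfra cells (log2 fold change -1.42 ± 0.15, edgeR adjusted p = 0.000219). Sema3c differed by -1.22 ± 0.16 and Pi16 by -0.48 ± 0.10. Dpp4 and Sema3c passed the threshold in both blocks, and Pi16 did not in block 10 (-0.03). Of 15 tested Hox genes, 3 were higher, Hoxd9, Hoxd8 and Hoxc10, by 0.27 to 0.63 on the log2 scale, beside 2.36% of all genes called higher. No Hox gene was called without Arom1, Arom2 or WT1 or with thinned cells, and Hoxd9 passed in neither block.

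The study describes hernia-associated fibroblasts (HAFs) in Esr1-high and Mmp3-high states and drew the markers of both from these same mice, so these lists are no independent evidence of direction. The counts in the lists that follow stand beside 2.36% of all genes called higher and 4.25% lower. Of 17 Mmp3-high HAF genes, 8 were lower in the selected fibroblasts than in other Pdgfra cells and 0 higher, among them Sfrp2 (-1.11 ± 0.23), Cthrc1 (-1.09 ± 0.17) and Mmp3 (-1.08 ± 0.18), although within block 10 Mmp3 stood at 0.25, Sfrp2 at -0.08 and Cthrc1 at -0.43, none past the threshold. Of 18 Esr1-high HAF genes, 1 was higher (Htra4) and 0 lower, a count that moved both ways. It was 12 against cells with none of the 5 genes, 7 with thinned cells, 6 within block 8, 6 without Arom3 and 2 without WT3, and 0 without Arom1, Arom2, WT1 or WT2, within block 10 and with no mouse block. With at least 3 of the 5 genes it was 0 as well, with 15 of 18 below 0 (median -0.15), and with the study's fixed limits 0 were higher and 1 lower. Of 25 fibrosis genes, 3 were higher and 6 lower, with Col1a1 at -0.53 ± 0.06 and Col3a1 at -0.30 ± 0.06. Within block 10, 1 of the 25 was lower and 0 higher, with Col1a1 at -0.28 and Col3a1 at -0.32, neither past the threshold, and the count of higher genes was 0 without Arom1, WT1 or WT2. Of 11 estrogen-responsive genes, Inhba (0.67 ± 0.11), Igf1 (0.35 ± 0.08) and Cilp (0.34 ± 0.05) were higher and Wisp2 was lower, whereas within block 10 none was higher and 2 were lower. The count of higher genes was 6 without Arom3, with thinned cells and within block 8, 9 against cells with none of the 5 genes, 2 without Arom1, WT1 or WT3 and 0 with no mouse block. The chemokine genes Ccl2 (0.50 ± 0.08) and Ccl7 (0.34 ± 0.05) were higher and Cxcl13 was lower of 17 tested, but within block 10 Ccl2 stood at -0.01 and Ccl7 at -0.30. Of 15 complement and acute phase genes, Saa3 and C2 were lower, and the count was 6 without Arom3, 5 without WT3 and 6 with at least 3 of the 5 genes. Zfp36 alone of 10 immediate early genes was higher, and none was without Arom1, Arom2, WT1 or WT2, while 0 were higher and 1 lower with thinned cells and with the study's fixed limits. Besides, 0 of 10 proliferation genes passed by edgeR or DESeq2.

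Since Wt1 and Aldh1a2 are also genes of the peritoneal lining, the selected fibroblasts were set against 2024 mesothelial cells, defined by a UMI of both Upk3b and Msln and none of Pecam1. Mesothelial cells had 190.0 to 243 CPM of Wt1 and 53.8 to 137 CPM of Aldh1a2, but at most 5.69 CPM of each of the other 3 genes. Of 11851 genes tested, 3416 were higher (28.8%) and 3539 lower (29.9%) in the selected fibroblasts, 58.7% in all. With so many genes called, a gene's call says little by itself, and the sizes matter more.

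All 12 tested mesothelial markers outside the rule were lower in the selected fibroblasts, and the keratin and lining genes were close to absent. Krt8 had 18 UMIs over the selected cells of all mice and 25677 over the mesothelial cells, a ratio of UMI rates of 1775 (exact 95% interval from 1123 to 2996). Upk1b had 11 UMIs (ratio 2002, interval from 1119 to 4011). Lrrn4 had 2 UMIs (ratio 6735, interval from 1864 to 55617) and Muc16 had 4 (ratio 1995, interval from 779 to 7323). Fgfbp1 and Chst4 had 0, at least 478-fold lower each, with 3 UMIs over the group as the limit. The rule kept out cells with a UMI of Upk3b or Msln and the mesothelial cells were defined by both, so low levels of the genes expressed with them follow in part from the selection. Against other Pdgfra cells, 6 mesothelial markers were tested, and 4 did not pass. Cldn15 was higher and Nkain4 lower, beside 2.36% of all genes called higher and 4.25% lower. Cldn15 stood at 29.7 ± 10.6 CPM against 17.0 ± 5.26 (mean and SD over 6 mice, log2 fold change 0.83 ± 0.09, edgeR adjusted p = 0.000232).

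On the higher side were secreted factors of fibroblasts. Cxcl14, a chemokine, stood at 389, 799.9 and 922 CPM in WT and 825, 705 and 1069 in Arom mice, against 1.39 to 64.0 in mesothelial cells (log2 fold change 5.91 ± 0.71, edgeR adjusted p = 0.00013). Myoc, which encodes myocilin, was higher by 5.37 ± 0.24, Pnoc, the precursor of nociceptin, by 5.25 ± 0.69, Tnfaip6, a hyaluronan-binding protein, by 5.15 ± 0.61, Ccl11, the chemokine eotaxin, by 5.00 ± 0.61, and Penk, which encodes proenkephalin, by 5.00 ± 0.34. Ren1, the renin gene, which is counted with near-identical copies, was higher by 5.87 ± 0.98. The complement gene C3 was lower, at 611 to 1597 CPM in the selected cells and 5335 to 10104 in mesothelial cells (log2 fold change -2.77 ± 0.16). Of 12 tested coelomic transcription factors, 2 were higher, Nr2f1 and Tcf21 (3.01 ± 0.34), and 8 were lower, among them Gata6 (-3.12 ± 0.24) and Gata5 (-4.34 ± 0.73). Rdh10 was higher than in mesothelial cells too (1.75 ± 0.16). Of 14 tested retinoid genes outside the rule, 5 were higher and 4 lower. All 11 estrogen-responsive genes, 21 of 25 fibrosis genes and 14 of 16 chemokine and cytokine genes were higher in the selected fibroblasts, beside 28.8% of all genes, and 10 of 15 complement and acute phase genes were lower, beside 29.9%.

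Within the selected fibroblasts, Arom and WT mice were compared on UMIs summed per mouse. Of 10303 genes tested, 142 were higher in Arom mice (1.38%) and 147 lower (1.43%), 2.81% in all (edgeR quasi-likelihood test, adjusted p under 0.05), and the 2 genotypes did not overlap in 29.0% of the genes tested. The sums rest on between 1175097 and 1660853 UMIs in the WT mice and between 6055515 and 13233772 in the Arom mice. The number of calls depended on each mouse: it was 0 without Arom1 (1477 genes at an unadjusted p under 0.05, against 2490 with all mice), 29 without Arom2, 1920 without Arom3, 11 without WT1, 1 without WT2 and 27 without WT3. Of the called genes that could be tested without a given mouse, every gene kept its direction. The share of block 10 cells differed between mice as given above, with overlap between the genotypes, so values within the blocks are set beside the results. Within block 8, 225 of 8924 genes tested were called, 127 higher and 98 lower in Arom mice. Of the 242 genes called in the full fit and tested there, 115 were called again and 240 had the same direction. These fits and those without 1 mouse reuse cells and mice of the full fit, so a kept direction is no replication. Within block 10, where WT3 had 7 cells and was not fitted, WT1 had 28 selected cells and WT2 had 10. There, 5 of 8787 genes tested were called, 4 higher and 1 lower in Arom mice. Counts of list genes within a block, given below, stand beside these totals.

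Of 11 estrogen-responsive genes tested, 7 were higher in Arom mice, 0 were lower and 4 did not pass, beside 1.38% of all genes called higher, with a median log2 fold change of 1.84 against 0.0016 over all genes. The list holds genes that the study named on the same mice, so its direction is not independent evidence. Pgr had 4, 1 and 1 UMIs in WT1, WT2 and WT3, which is 2.41, 0.724 and 0.851 CPM, and stood at 79.2, 154 and 35.2 CPM in Arom1, Arom2 and Arom3 (log2 fold change 5.92 ± 0.81, edgeR adjusted p = 0.0231). Over the pooled UMIs the ratio was 67.1, with an exact 95% interval from 30.8 to 183. Every Arom mouse lay far above every WT mouse.

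Ramp3, a partner of calcitonin-family receptors, stood at 4.82, 0 and 1.70 CPM in WT and 338, 475 and 128 in Arom mice (log2 fold change 7.01 ± 0.76, edgeR adjusted p = 0.0194). Nppc, which encodes C-type natriuretic peptide, stood at 109.6, 116 and 31.5 CPM in WT and 1589, 1963 and 382 in Arom mice (3.89 ± 0.68, adjusted p = 0.0327). Inhba, a subunit of activin, stood at 107, 44.9 and 84.2 CPM in WT and 919, 825 and 253 in Arom mice (3.04 ± 0.52, adjusted p = 0.0319). In these 3 genes Arom3 lay nearest to the WT mice. Greb1 stood at 29.5, 19.5 and 26.4 CPM in WT and 79.0, 145 and 55.3 in Arom mice (1.84 ± 0.37, adjusted p = 0.0442), and Cilp was higher by 0.92 ± 0.19.

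Esr1 itself differed less. It stood at 62.6, 59.4 and 50.2 CPM in WT and 95.7, 140.2 and 97.1 in Arom mice (log2 fold change 0.90 ± 0.19, edgeR adjusted p = 0.0483). Within block 8 the difference was 0.20 (adjusted p = 0.789) and within block 10 it was also 0.20 (adjusted p = 0.780). Neither passed, but the block 10 fit lacked WT3 and had 10 selected cells in WT2, so it could miss a moderate difference. Wisp2 stood at 14.4, 13.0 and 12.8 CPM in WT and 224, 391 and 13.0 in Arom mice, with Arom3 at the WT level, and did not pass the threshold (3.92 ± 1.05, edgeR adjusted p = 0.0731). Ramp3, Pgr and Greb1 had higher values in Arom mice within block 10 too, at 6.05, 4.72 and 1.06, with edgeR adjusted p of 0.0163, 0.0804 and 0.160. Of the estrogen-responsive list, 4 of 9 were called higher within block 8 and 1 of 11 within block 10. Of all genes tested, 127 of 8924 were called higher within block 8 and 4 of 8787 within block 10.

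Outside the estrogen list, Erfe, the hormone gene erythroferrone, stood at 3.61, 0.724 and 0 CPM in WT and 258, 280.2 and 139 in Arom mice (log2 fold change 7.05 ± 0.57, edgeR adjusted p = 0.0128). It passed the threshold within block 8 and within block 10 (7.52 and 5.49). Of the 10 genes named by rule on the higher side, 4 of 5 tested passed within block 8 (Erfe, Nppc, Inhba and Tnc, but not Arl4c) and 3 of 10 within block 10 (Erfe, Ramp3 and Tnc). Nrg1, the growth factor neuregulin, had 2 UMIs over the WT mice and 2137 over the Arom mice, a ratio of 155 with an exact interval from 42.7 to 1277, but Arom3 stood at 8.59 CPM against 83.3 and 99.6 in the other Arom mice (edgeR adjusted p = 0.0483). Cd74 stood at 1.81, 2.17 and 0.851 CPM in WT, which is 7 UMIs in all, and at 121, 171 and 58.1 in Arom mice (6.08 ± 0.59, adjusted p = 0.0172). Arl4c, a small GTPase, was higher by 5.25 ± 0.74, Tspan13, a tetraspanin, by 4.20 ± 0.88 and Tnc, the matrix protein tenascin C, by 2.98 ± 0.54 on the log2 scale.

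Of 25 fibrosis genes tested, 11 were higher in the selected cells of Arom mice, 1 was lower and 13 did not pass, beside 1.38% of all genes called higher and 1.43% lower, with a median log2 fold change of 0.87. Part of this list was named by the study on these mice, so its direction is not independent evidence. Timp1, an inhibitor of matrix proteases, stood at 148, 132 and 149 CPM in WT and 1673, 1038 and 456 in Arom mice (2.85 ± 0.43, edgeR adjusted p = 0.0257). Col1a1 stood at 2208, 2249 and 2053 CPM in WT and 5814, 4186 and 3614 in Arom mice (1.03 ± 0.20, adjusted p = 0.041). Col3a1 was higher by 1.06 ± 0.21, Col12a1 by 1.69 ± 0.31, Spon2 by 1.77 ± 0.31 and Postn, which encodes periostin, by 1.37 ± 0.22. Within block 8, 12 of the 25 were higher and 1 lower, and Col1a1 differed by 1.39 (adjusted p = 0.0246). Within block 10, 1 was higher.

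The lower gene of that list was Tgfbi, a matrix protein, at 272, 263 and 180.4 CPM in WT and 33.6, 30.6 and 84.6 in Arom mice (log2 fold change -2.33 ± 0.38, edgeR adjusted p = 0.0301). The other genes named on the lower side were Ptn, the growth factor pleiotrophin (-3.62 ± 0.66), Inmt, a methyltransferase (-3.0002 ± 0.348), Comp, a cartilage matrix protein (-2.71 ± 0.53), Fmo2, a monooxygenase (-2.36 ± 0.43), Hpgd, which degrades prostaglandins (-2.15 ± 0.30), Cystm1 (-2.01 ± 0.34), Apod, which encodes apolipoprotein D (-1.996 ± 0.322), Tnfsf9, the ligand of 4-1BB (-1.68 ± 0.27), and H2-Q4 (-1.76 ± 0.32), whose counts are shared with near-identical class I genes. Inmt stood at 178, 64.4 and 115 CPM in WT and 13.6, 14.9 and 18.3 in Arom mice. Apod stood at 1611, 1908 and 2953 CPM in WT and 428, 415 and 834 in Arom mice, yet within block 8 it differed by only -0.24 (adjusted p = 0.705). Inmt passed within block 8 (-3.77) and stood at 1.32 within block 10, where Fmo2 stood at -0.11 (adjusted p = 0.958). Of the 10 genes named by rule on the lower side, 8 of 9 tested passed within block 8 and 0 of 9 within block 10. The summed glial markers, given above, were also lower in the Arom mice.

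**Figure D5:**
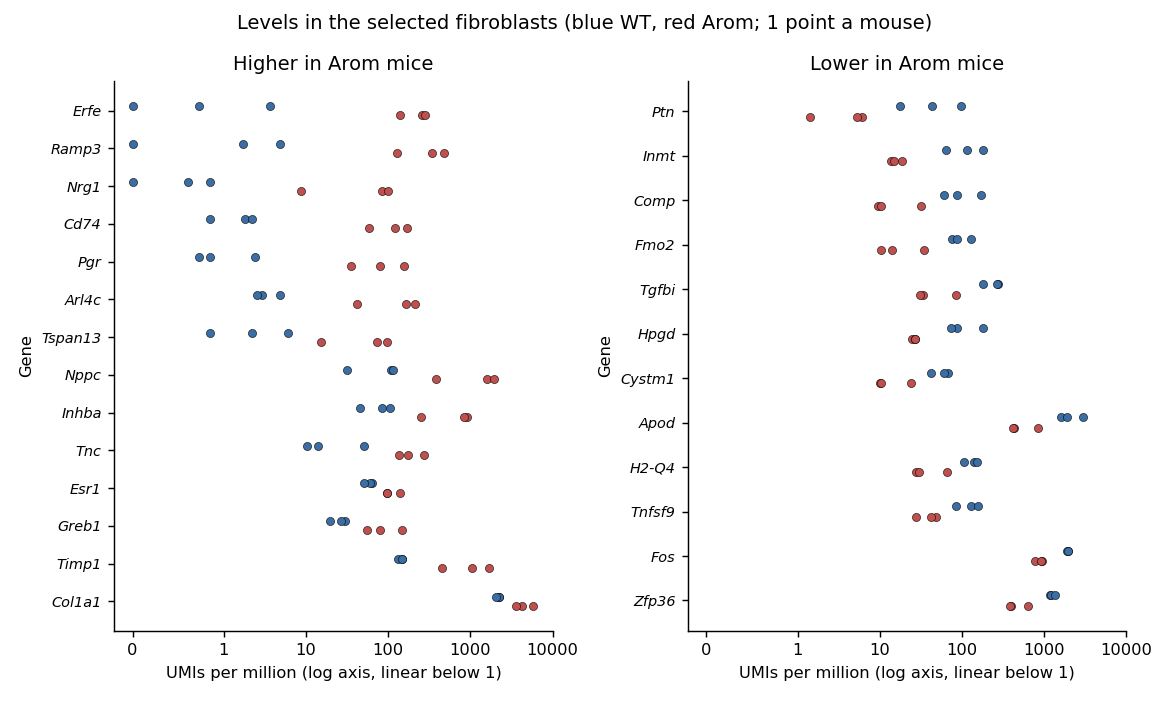
Levels in the selected fibroblasts in CPM (log axis, linear below 1) for genes higher (left) and lower (right) in Arom mice, with 1 point per mouse (blue WT, red Arom). The genes named by rule were required to show no overlap between WT and Arom mice. The others plotted, Esr1, Greb1, Timp1, Col1a1, Fos and Zfp36, showed none either, as did 29.0% of all genes tested. Arom3 stands at 35.2 for Pgr where Arom2 stands at 154.

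Of 10 tested immediate early genes, which respond within minutes to stimuli and also to tissue digestion, 4 were lower in Arom mice, 0 were higher and 6 did not pass, beside 1.43% of all genes called lower, and all 10 had a log2 fold change below 0. Fos stood at 1954, 1889 and 1955 CPM in WT and 766, 946 and 919 in Arom mice (-1.19 ± 0.13, edgeR adjusted p = 0.0211). Zfp36, whose protein destabilizes mRNAs, stood at 1188, 1223 and 1350.5 CPM in WT and 392, 378 and 637 in Arom mice (-1.47 ± 0.21, adjusted p = 0.0231). Junb differed by -0.99 ± 0.21 and Egr1 by -0.85 ± 0.16. Fos passed the threshold within block 8 (-0.97) and within block 10 (-1.79), Zfp36 passed within block 8 (-1.15) but not within block 10 (-1.69), and Junb and Egr1 passed in neither.

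Of 13 complement and acute phase genes, C4b (2.12 ± 0.42) and Lbp (0.88 ± 0.17) were higher. Ccl8 of 16 chemokine and cytokine genes and Ube2c of 6 proliferation genes were higher as well, but neither list had a call without likely doublets, and Ube2c did not pass with another set of size factors. These counts stand beside 1.38% of all genes called higher. Of 18 Esr1-high HAF genes, 11 were higher and all 18 had a log2 fold change above 0, and of 17 Mmp3-high HAF genes 3 were higher and 0 lower. Within block 8, 5 of 15 Esr1-high HAF genes tested were higher. Within block 10, 2 of 18 were higher and 2 lay below 0. Of the Mmp3-high HAF genes, 7 of 17 were higher within block 8 and 0 within block 10. With at least 3 of the 5 genes, neither HAF list had a call. Without WT1 or WT3, 1 Esr1-high HAF gene was higher, without Arom2 4 and without Arom3 17. Ren1, which is on the Esr1-high list, varied widely between mice, and stood at 17379, 617 and 1159 CPM in WT and 17211, 10420.0 and 7378 in Arom mice, with WT1 as high as Arom1 (0.81 ± 1.06, edgeR adjusted p = 0.691). Cst3 alone of 8 tested genes of the fetuin list was lower (-1.08 ± 0.16), beside 1.43% of all genes called lower. No gene of that list was called without Arom1, Arom2, WT1, WT2 or WT3, with at least 3 of the 5 genes or with the study's fixed limits. Without Arom3, 3 were lower. Without Arom1 or without WT2, no gene of the estrogen, fibrosis, immediate early, complement and both HAF lists was called between genotypes. The estrogen list also had no call without WT1 or WT3, nor the fibrosis list without Arom2 or WT1. Neither had a call with at least 3 of the 5 genes. Without Arom3, 9 estrogen genes were higher, and 17 fibrosis genes were higher and 2 lower.

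Several other lists had no call between genotypes in the main fit. None of 13 retinoid, 8 coelomic transcription factor, 3 monoamine, 13 basement membrane, 10 adventitial and 14 Hox genes was called by edgeR there, at a background of 2.81%. Other edgeR fits did call some. Without Arom3, 4 retinoid genes were higher and 2 lower, 3 coelomic genes were higher and 3 basement membrane genes lower. With the replicate block, 1 retinoid gene was lower, 1 coelomic gene higher and 3 basement membrane genes lower. By DESeq2, 1 gene each of the retinoid, basement membrane, adventitial and Hox lists was called. Rdh10 stood at 45.8, 57.2 and 70.6 CPM in WT and 95.1, 66.1 and 107 in Arom mice, with Arom2 below WT3 (0.59 ± 0.22, edgeR adjusted p = 0.148), although within block 8 it differed by 1.17 (adjusted p = 0.0178).

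Whether the genotype difference in the selected fibroblasts departs from that in the other Pdgfra cells was tested as an interaction. Of 12906 genes, 2 passed (0.0155%), Cd74 with a larger difference in the selected cells (0.00775%) and Klk1 with a smaller (0.00775%), and none of the genes named above in the estrogen, fibrosis or immediate early lists did (929 genes at an unadjusted p under 0.05, and 11 by DESeq2). Pgr differed between genotypes in the other Pdgfra cells as well, at 2.61, 0.670 and 1.40 CPM in WT and 64.4, 101 and 37.6 in Arom mice, and the difference of the differences was 0.52 ± 0.60 on the log2 scale (edgeR adjusted p = 0.933). For Timp1 it was 0.05 ± 0.12, for Col1a1 -0.04 ± 0.12, for Fos 0.11 ± 0.13 and for Esr1 -0.19 ± 0.18. For Ramp3 it was 2.09 ± 0.49, which did not pass (adjusted p = 0.547).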

How the data were processed

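Single-cell RNA-seq libraries of the LAM of 3 WT and 3 Arom mice were analysed, each library from 1 mouse. The authors aligned reads and counted UMIs with Cell Ranger 3.0.2 against the mm10 genome with human CYP19A1 added, and deposited raw UMI counts of 16494 genes in 63647 barcodes. The members and the gene lists were chosen with earlier results of these data known.

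Barcodes were kept if they held 1000 UMIs or more, of which mitochondrial genes gave 10% or less, and the rule was applied to their counts. Counts were summed per mouse and cell group and tested with edgeR 4.0.16 in R 4.3.3 (TMM, filterByExpr, quasi-likelihood test, Benjamini-Hochberg adjustment over all genes, threshold 0.05). Comparisons with other Pdgfra and mesothelial cells, and the interaction, had mouse as a block. A mouse with fewer than 10 cells of a group was left out of a fit. The 9 genes of the rule stayed in the fit and out of all counts of calls. CPM is UMIs per 1000000 UMIs summed in those cells of a mouse. DESeq2 1.42.0 was an alternative.

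Genes named against other cells were called, had the same direction in all 6 mice and at least 50 CPM in the higher group, with 12 higher and 8 lower by fold. Between genotypes they were called, did not overlap and had at least 50 CPM, with 10 each way. Members of the fixed lists were named besides. Results for 2 genes are not reported here. Scrublet's automatic threshold marked 0 cells in WT2 and WT3, so the 5% highest scores of each mouse were left out as an alternative, and doublets were otherwise kept. On counts simulated for the genotype comparison with 10309 genes, 52.1% of 2-fold and 96.7% of 4-fold changes were recovered, and 6.76% of calls were false. Genes were drawn independently at the trended dispersion, without deviations shared within a mouse, so recovery in the data may be lower. Promoters and gene positions came from RefSeq tables on GRCm38.p6.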

Additional observations from a re-analysis of the deposited data

Results flagged for a closer look

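For 2 genes the genotype difference in the selected fibroblasts differed from that in the other Pdgfra cells of the same mice, by the interaction test across 12906 genes. Cd74, the invariant chain of class II antigen presentation, had a difference of differences of 4.87 ± 0.53 on the log2 scale (edgeR adjusted p = 0.0382). It stood at 1.81, 2.17 and 0.851 CPM in the selected cells of WT1, WT2 and WT3 and at 121, 171 and 58.1 in those of Arom1, Arom2 and Arom3, whereas the other Pdgfra cells held 116, 115 and 56.2 CPM in WT and 286, 220.3 and 167 in Arom mice. The low level was thus seen in the selected WT cells of all 3 mice. The value did not pass within block 8 (1.497, adjusted p = 0.915) or block 10 (1.80, adjusted p = 0.708), nor without likely doublets (1.43). Over 15 alternatives it ranged from 1.43 to 11.95 and kept its direction, and 10 of them no longer passed the threshold, among them the fits without Arom1, WT1, WT2 or WT3 (adjusted p = 0.053, 0.276, 0.411 and 0.083).

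Klk1, a kallikrein gene with near-identical copies whose count is uncertain, had a difference of differences of -6.89 ± 0.64 (edgeR adjusted p = 0.0382). It rested on WT1, whose selected cells held 46 UMIs, or 27.7 CPM, while those of WT2 and WT3 held 0. Without WT1 the value was 0.42.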

How the results depend on the processing

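The difference in share between Arom and WT mice, 4.33 percentage points, was 0.107 with cells thinned to 1000 UMIs, 1.53 with at least 3 of the 5 genes, 1.03 with the study's fixed limits on genes and mitochondrial UMIs and 10.5 of Pdgfra cells (1.09 when thinned, chosen after seeing the data). Without 1 mouse it ranged from 3.56 to 4.91. These differences in points fall when fewer cells meet the rule. The ratio of the Arom to the WT mean was 4.06 in the main setting and 2.15 with the study's fixed limits. With at least 3 of the 5 genes it was 11.3, from 0.149% in WT and 1.68% in Arom mice. With thinned cells it was 24.8, which rests on 1 WT cell. The 289 genotype calls became 870 with DESeq2, 186 without likely doublets, 31 with these fixed limits, 62 with thinned cells, 5 within block 10 and 0 with at least 3 of the genes (5 mice, 985 genes at an unadjusted p under 0.05). They ranged from 0 without Arom1 to 1920 without Arom3, and every mouse left out moved the count by over 1.5 times, as given above. The 852 calls against other Pdgfra cells became 302 with these fixed limits, 330 with thinned cells, 556 with at least 3 genes, 1403 against cells with none of the 5 genes, 34 with no mouse block and 159 within block 10. Without 1 mouse they ranged from 375 (Arom1) to 830 (Arom3). The 6955 calls against mesothelial cells became 2623 with these fixed limits and 2147 with thinned cells, and ranged from 5358 to 7128 without 1 mouse. The 2 interaction calls became 11 with DESeq2, 20 without likely doublets, 13 with thinned cells, 1 with at least 3 genes and 11 within block 10, and ranged from 0 (without Arom1 or WT2) to 27 (without Arom3), with 1 without WT1 and 4 without WT3. The cause of these shifts was not tested. The doublet and block alternatives were chosen after seeing the data.

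Some single genes changed sign. Between genotypes, Col12a1 stood at -0.0529 with these fixed limits and Ren1 at -1.003 with at least 3 genes. Within block 10, Inmt stood at 1.32, Lbp at -0.70, Kng2 at -0.22, Rdh10 at -0.13 and Ren1 at -0.38. Against other Pdgfra cells, Ren1 stood at -0.0916 with at least 3 genes, and Cd74 at 0.57 in block 8 and 0.39 in block 10. In block 10, Srgn stood at 0.0674, Dhrs3 at 0.0286, Mmp3 at 0.25, Igf1 at -0.0473, Ccl2 at -0.0115 and Ccl7 at -0.30. The interaction of Klk1 stood at 3.30 with at least 3 genes and ranged from -6.99 to 0.415 without 1 mouse (0.415 without WT1). The interactions of 4 genes that were not called lay near 0 and also crossed it. Col1a1 stood at 0.0487 with these fixed limits, 0.0223 with thinned cells and 0.108 in block 10, Esr1 at 0.189 with thinned cells, 0.106 in block 8 and 0.192 in block 10, Timp1 at -0.349 with at least 3 genes and -0.352 in block 10, and Fos at -0.192 with at least 3 genes. Without 1 mouse, Col1a1 ranged from -0.165 to 0.0568 and Timp1 from -0.0121 to 0.184.

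The study's methods pair 1 WT with 1 Arom littermate per date but do not tie the replicate numbers to dates. Deviations of same-numbered mice correlated at 0.42, 0.011 and 0.18 over 2699 genes, and those of unlike number between -0.33 and 0.12. WT1 and WT3 correlated best with the Arom mouse of the same number, whereas WT2 correlated best with Arom3 (0.12). Whether the numbers mark littermate pairs was not settled by these values, and the main genotype test used no block. With the replicate number as a block, 839 genotype calls were made in place of 289.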
